A study of Mus musculus with 16 samples.

Results

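Mouse induced pluripotent stem cells (iPSCs) labelled number 10 were compared with those labelled number 1, with 4 RNA-seq libraries of each out of 16 in the series. All 8 libraries carry the genotype ColA1_miR203; Rosa26rtTA, in which doxycycline induces the microRNA miR-203 through the rtTA activator, and all are labelled as given doxycycline (DOX) for 5-7 days, so no untreated genotype stands beside them. The iPSCs were made from embryonic fibroblasts and grown on feeder cells, whose type is not given and whose RNA may be part of each library. Titles begin with KI or KIX, followed by D or V and then the number, and the labels explain none of these codes. Each number therefore has KI D, KI V, KIX D and KIX V libraries, and values by library are given in that order. The series describes time points before, 5 and 20 days after the doxycycline pulse, but ties no number to one of them.

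Expression is given in FPKM (fragments scaled by the authors to transcript length and to the mapped fragments of a library), as mean ± SD of 4 libraries where no single values are given. Of 23284 genes in the table, 12875 had at least 1 FPKM in at least 2 of the 8 libraries and were tested. A change is the difference of log2(FPKM + 1), number 10 minus number 1, and understates changes of low genes. "Rose" and "fell" are used for an adjusted p under 0.05 in limma over all genes tested. Whether the 4 libraries of a number came from separate cultures is not stated, and the p-values therefore rest on a spread between libraries that may be technical. D and V libraries of a prefix and number were closer to each other (median absolute log2 difference 0.044 to 0.083 over 2013 genes with a mean of 50 FPKM or more) than KI and KIX libraries (0.091 to 0.172). The same measure between number 10 and number 1 libraries of a title code was 0.168 to 0.186. Each library totalled 644872 to 693300 FPKM, with 12154 to 12371 genes at 1 FPKM or more, and the depth in reads is unknown.

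Some background helps in reading the lists. Interferons bind cell-surface receptors whose Jak kinases activate transcription factors, and these switch on antiviral genes through the interferon-stimulated response element. Low oxygen stabilises hypoxia-inducible factors, which raise glycolytic enzymes and glucose transporters. Nodal and Wnt signals draw epiblast cells toward the primitive streak, where the embryo's mesoderm and endoderm arise.

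The sequences shown are those of miR-203, which the transgene encodes, and of the regions in front of genes from the interferon and the hypoxia groups. The mature miR-203-3p (RefSeq, GRCm38.p6, chr12:112130927-112130948, plus strand) is shown with its seed, bases 2 to 8, in capitals.
miR-203-3p: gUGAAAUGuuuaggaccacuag
The interferon-induced genes Isg15 and Gbp2 and the chemokine gene Cxcl10, which all rose, are shown by the 250 bases before their annotated start, read 5′ to 3′ on the gene's strand, with matches to the interferon-stimulated response element (GAAANNGAAA, either strand) in capitals. The windows are chr4:156200819-156201068 (minus) for Isg15, chr3:142620413-142620662 (plus) for Gbp2 and chr5:92348890-92349139 (minus) for Cxcl10, and the 3 matches of Isg15 overlap in 1 run.
Isg15: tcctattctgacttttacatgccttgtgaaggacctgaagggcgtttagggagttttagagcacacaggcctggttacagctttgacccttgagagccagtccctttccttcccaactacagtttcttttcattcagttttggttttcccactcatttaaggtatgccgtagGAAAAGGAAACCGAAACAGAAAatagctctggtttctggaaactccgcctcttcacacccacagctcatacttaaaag
Gbp2: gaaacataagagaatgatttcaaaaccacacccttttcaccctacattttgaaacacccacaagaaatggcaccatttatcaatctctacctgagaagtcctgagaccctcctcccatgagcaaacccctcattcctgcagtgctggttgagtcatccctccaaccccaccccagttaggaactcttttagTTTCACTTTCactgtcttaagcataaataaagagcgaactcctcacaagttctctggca
Cxcl10: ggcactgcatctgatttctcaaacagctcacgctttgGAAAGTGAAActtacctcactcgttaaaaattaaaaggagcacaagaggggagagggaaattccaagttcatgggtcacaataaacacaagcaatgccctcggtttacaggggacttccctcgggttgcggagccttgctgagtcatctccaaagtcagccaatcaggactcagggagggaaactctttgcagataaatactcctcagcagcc
The hypoxia-responsive Bnip3 and the glycolytic Pgk1 and Slc2a1, which all fell, follow, with matches to the hypoxia response element core (ACGTG, either strand) in capitals. They are chr7:138909507-138909756 (minus) for Bnip3, chrX:106186850-106187099 (plus) for Pgk1 and chr4:119108495-119108744 (plus) for Slc2a1, and the 2 matches of Bnip3 overlap as a palindrome.
Bnip3: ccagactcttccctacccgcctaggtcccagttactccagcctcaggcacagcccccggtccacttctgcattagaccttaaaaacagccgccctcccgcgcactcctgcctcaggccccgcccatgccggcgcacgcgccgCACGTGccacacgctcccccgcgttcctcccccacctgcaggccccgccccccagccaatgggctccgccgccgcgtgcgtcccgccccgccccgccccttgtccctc
Pgk1: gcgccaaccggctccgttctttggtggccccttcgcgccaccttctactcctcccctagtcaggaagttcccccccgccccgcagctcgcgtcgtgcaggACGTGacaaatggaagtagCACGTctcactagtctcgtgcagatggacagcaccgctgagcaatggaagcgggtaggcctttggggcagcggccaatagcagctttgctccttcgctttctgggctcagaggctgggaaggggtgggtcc
Slc2a1: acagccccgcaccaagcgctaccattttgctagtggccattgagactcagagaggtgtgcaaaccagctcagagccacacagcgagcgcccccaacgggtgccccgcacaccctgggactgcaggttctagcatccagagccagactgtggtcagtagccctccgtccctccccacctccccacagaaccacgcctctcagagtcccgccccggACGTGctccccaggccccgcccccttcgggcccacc
In the whole windows of 250 bases before to 50 after the start, 16 of 23 interferon-induced genes with a RefSeq promoter held the interferon element (69.6%), against 3.73% of 10058 genes tested that had one. The hypoxia core stood in 16 of 20 hypoxia-responsive genes (80.0%) and in 12 of 18 glycolysis genes (66.7%), against 29.5% of genes tested, but also in 8 of 9 germ line genes. Over all called genes the interferon element stood in 7.01% of those that rose and 3.06% of those that fell, and the hypoxia core in 25.8% and 32.2%. The 6 promoters printed were chosen because they hold a match. A match is a description of the letters in the window and not evidence of binding.

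Between number 1 and number 10, interferon-induced, chemokine and antigen-presentation transcripts rose together, while hypoxia-responsive and glycolytic transcripts fell. Brachyury and other primitive streak transcripts were lower too, but 7 of the 13 tested, brachyury included, passed the filter through number 1 only. The core pluripotency factor Pou5f1 (Oct4) had 963 ± 27.0 FPKM at number 1 and 1002 ± 126 at number 10, a log2 change of 0.049 that did not pass the test (adjusted p = 0.682). Nanog (204 ± 23.2 and 199 ± 32.3, adjusted p = 0.803) and Sox2 (135 ± 8.86 and 149 ± 18.1, adjusted p = 0.253), its partners in that network, did not pass either. In all, limma called 5031 genes (39.1% of those tested), of which 2392 rose (18.6% of those tested) and 2639 fell (20.5%). At least 2-fold, 305 rose and 167 fell. In 2386 genes every number 10 library lay above every number 1 library (18.5%), and in 2698 every one lay below (21.0%). The median change over all genes tested was -0.0071, so the lists below stand beside a centre near 0 and a background of about 20% called each way. The lists were chosen with earlier results of these data known, so their counts describe them and are not a test against that background.

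The targeted microRNA itself was listed under Mir203 at 0, 0, 1868 and 1969 FPKM in the number 1 libraries and at 0 in all 4 number 10 libraries. At number 4 the listed values were 0, 0, 2254 and 1728 FPKM, again with the KI libraries at 0. So short a gene turns few fragments into a large FPKM, and an exact 0 in such a table can be a failed estimate. No treatment was assigned to a library from these values. Of 7 tested genes reported as miR-203 targets, 3 rose and none fell, with a median of 0.29. They were Snai2, a transcription factor of epithelial-mesenchymal transition (1.02), Socs3, an inhibitor of cytokine signalling (0.94), and the kinase gene Abl1 (0.19), whose call was lost in several alternatives (adjusted p = 0.00768 to 0.199). Dnmt3a, a de novo DNA methyltransferase and reported target, stood at 40.8, 38.6, 26.1 and 24.9 FPKM in number 1 libraries and 24.5, 37.2, 48.7 and 52.4 in number 10 libraries. Its level was higher at number 10 in the KIX pair and not in the KI pair. Of the 7 reported targets 3 rose within KI (median 0.11) and 5 within KIX (median 0.61), with none down in either. Over all genes tested 19.9% rose within KI and 23.2% within KIX. The difference between the prefixes was called in 2 of the 7, in a test that was unstable, as given below.

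**Figure D1:**
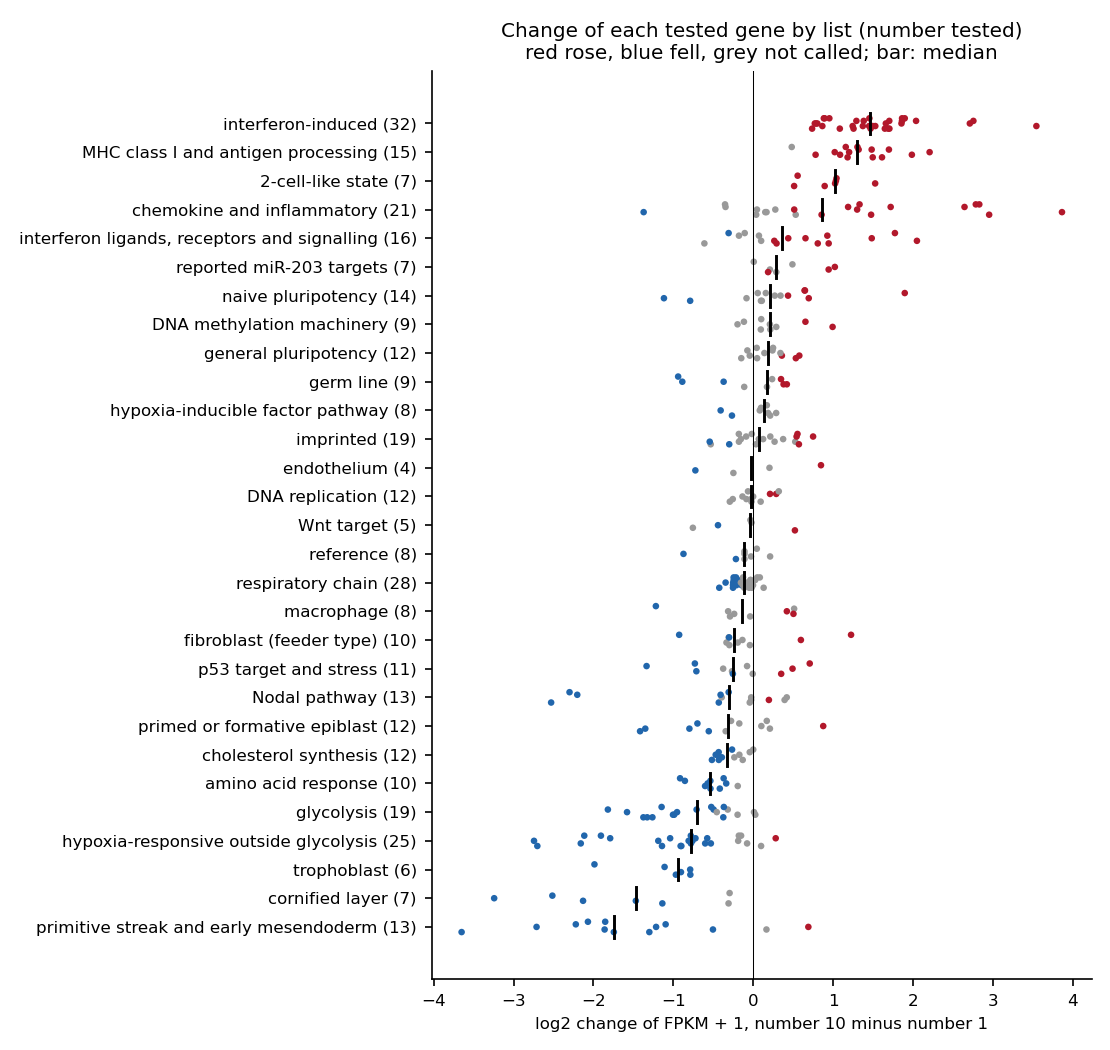
Each point is a tested gene, placed by its log2 change of FPKM + 1 (number 10 minus number 1) within its list, with the number tested in brackets and the median as a bar; red points rose, blue points fell and grey points were not called. The interferon-induced list lies wholly to the right (median 1.46), and the hypoxia-responsive (-0.78), glycolysis (-0.71) and primitive streak (-1.75) lists lie mostly to the left.

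Every one of the 32 interferon-induced genes rose, with changes from 0.74 to 3.55 and a median of 1.46, and in each the 4 number 10 libraries lay above the 4 number 1 libraries. Ifit2, which binds RNA and blocks translation in infected cells, changed most in this list. It stood at 14.02, 15.6, 15.9 and 10.2 FPKM in number 1 libraries and 168, 279.7, 115 and 158 in number 10 libraries, a change of 3.55 (SE 0.25, adjusted p = 0.000152). Its lowest number 10 library lay well above its highest number 1 library. Mx1, a dynamin-like GTPase that blocks viruses, was at 2.54, 3.82, 3.55 and 2.11 FPKM and then 27.2, 40.8, 16.6 and 23.3 (log2 change 2.76, SE 0.25, adjusted p = 0.000277). Gbp2, a guanylate-binding protein that acts on intracellular pathogens, was at 14.6, 18.1, 20.7 and 12.6 and then 130.4, 170.3, 72.6 and 97.7 FPKM (2.71, SE 0.26, adjusted p = 0.000309). In all 3 genes the number 10 libraries ran KI V, KI D, KIX V and KIX D from high to low, and the groups did not overlap. The fibroblast and macrophage marker scores ran in the same order at number 10, as did those of the primitive streak and the p53 target and stress lists, as given below.

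Abundant members moved by less but from a high level. Bst2, tetherin, which holds budding virus at the cell surface, rose from 229.5 ± 24.8 to 837 ± 77.8 FPKM, a change of 1.86 (SE 0.092, adjusted p = 4.42e-05). Isg15, a ubiquitin-like modifier, rose from 158 ± 22.6 to 526 ± 150.4 FPKM (1.69). Oasl1, of the oligoadenylate synthetase-like family (2.04), Iigp1, an immunity-related GTPase (1.90), Gbp3 (1.86) and Cmpk2, a nucleotide kinase (1.86), made up the rest of the 8 largest. Other guanylate-binding or interferon-inducible genes were among the largest rises over all genes, with Ifi205 at 2.64, Gbp9 at 2.38 and Gbp5 at 2.37. The mean log2(FPKM + 1) over the list was 4.49 ± 0.18 at number 1 and 6.01 ± 0.30 at number 10. At number 4, which is not part of the comparison, it was 3.30 ± 0.32.

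Of 16 tested genes for interferon ligands, receptors and signalling, 10 rose and 1 fell. Among the sensors and transducers, Irf7, the factor that amplifies interferon production, was at 34.5, 38.2, 34.8 and 29.3 FPKM in number 1 libraries and 187, 189.8, 102 and 119.7 in number 10 libraries (log2 change 2.05, SE 0.20, adjusted p = 0.000352). Tlr3, a receptor for double-stranded RNA (1.77), and the receptor-bound kinase Jak1 (0.95) rose as well. Irf1, an interferon-induced transcription factor, was the one that fell (-0.31, SE 0.095, adjusted p = 0.0324), and its call was lost in some alternatives (adjusted p = 0.00657 to 0.0831). Ifnb1, interferon beta, had 1.504, 1.38, 1.82 and 0.570 FPKM in number 1 libraries and 0.183, 1.32, 0.120 and 0.581 in number 10 libraries (log2 change -0.61, adjusted p = 0.0951), and it was called lower without KIX V of number 1, without KI V of number 10 and with letter by number means (adjusted p = 0.02 to 0.217 over the alternatives). Ifnb1 passed the filter through number 1 only, which favours a lower value at number 10, so these calls do not support a fall. The gene of interferon gamma was not tested, being listed at 0 in all 8 libraries. At number 4 Ifnb1 was listed at 0 in all 4 libraries.

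**Figure D2:**
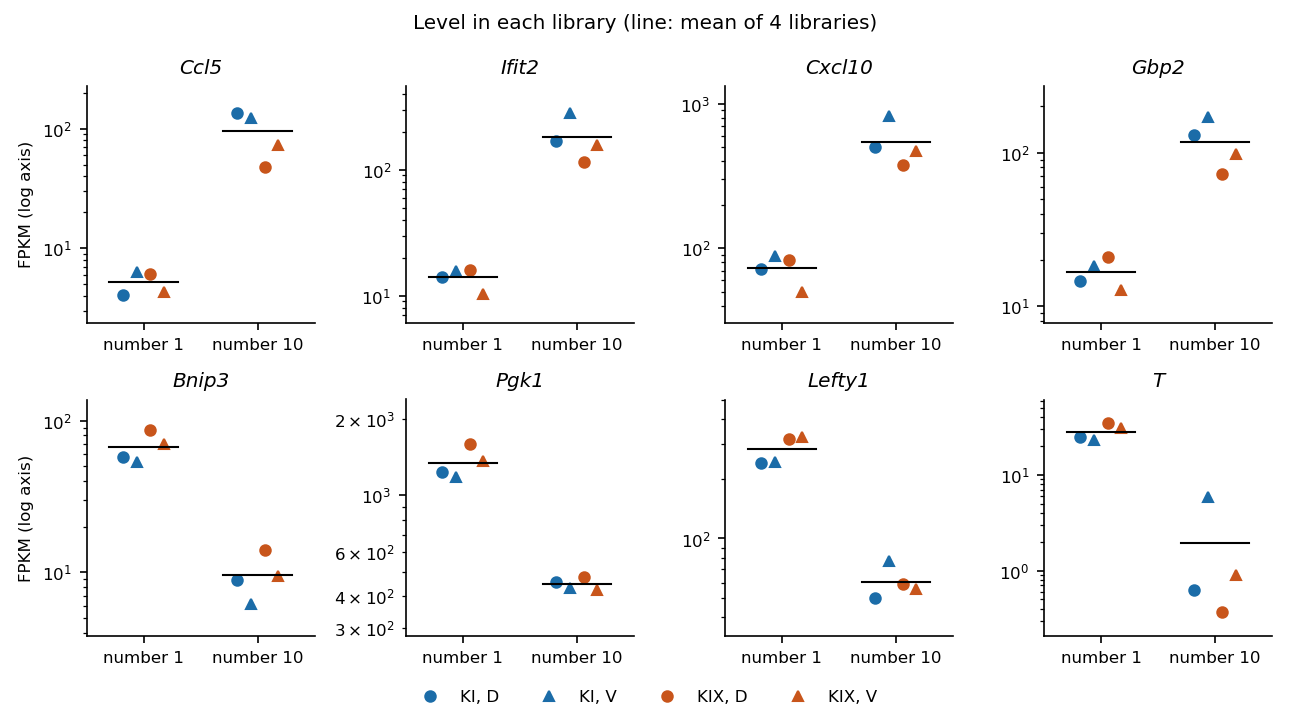
FPKM on a log axis of 8 genes in each library of number 1 and number 10, with KI in blue, KIX in orange, D as circles, V as triangles and the mean of 4 libraries as a line. The chemokine and interferon-induced genes lie higher at number 10 without overlap, and Bnip3, Pgk1, Lefty1 and T lie lower without overlap, with the KI V library of number 10 above the other 3 for T.

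The largest rise of any named gene was that of Ccl5, a chemokine that draws T cells. Its FPKM was 4.04, 6.28, 6.05 and 4.32 in the number 1 libraries and 137, 123, 47.7 and 73.3 in the number 10 libraries, a change of 3.87 (SE 0.32, adjusted p = 0.000214). Both KI libraries of number 10 lay above both KIX libraries. Cxcl10, a chemokine classically induced by interferon gamma, was at 72.1, 88.6, 83.4 and 50.1 FPKM and then 498, 821, 376 and 467 (2.83, SE 0.25, adjusted p = 0.000264). Cxcl11 (2.95) and Cxcl9 (2.65), which share its receptor Cxcr3, rose from about 1 FPKM or less, and both passed the filter through number 10 only. In all, 12 of 21 chemokine and inflammatory genes rose and 1 fell. Ptx3, a soluble pattern recognition protein (2.79), and the monocyte chemokines Ccl8 (1.72) and Ccl2 (1.48) rose too. The 1 that fell was Saa3, an acute-phase protein (-1.37). Outside the list, S100a8, a calcium-binding protein of myeloid cells, rose from 0.886 ± 0.364 to 9.35 ± 4.06 FPKM (2.39).

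Genes for MHC class I molecules and their peptide supply moved the same way, with 14 of 15 up, none down and a median of 1.31. H2-Q4, a class I molecule, was at 17.4, 17.3, 15.4 and 12.3 FPKM in number 1 libraries and 106, 97.3, 52.0 and 59.3 in number 10 libraries (2.21, SE 0.23, adjusted p = 0.000451). Psmb9 (1.99) and Psmb8 (1.61), subunits of the immunoproteasome, and the class I gene H2-Q6 (1.70) followed. The H2-Q genes are near-identical to one another, so their reads may be split unevenly. The median change was 1.60 within KI and 1.04 within KIX. In 6 of the 15 genes the change was called lower in KIX than in KI, beside 3.66% of all genes tested. That test was unstable, as given below. The summed level of the list was 592 to 680 FPKM at number 1, 927 to 1761 at number 10 and 1351 to 1644 at number 4.

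Feeder and immune cell markers were read beside these groups. The 10 fibroblast genes summed to 1696 to 2531 FPKM at number 1 and 1469 to 2566 at number 10, with the list score, the mean log2(FPKM + 1), at 6.56 ± 0.26 and 6.49 ± 0.34. At number 10 the fibroblast score was 6.66 in KI D, 6.89 in KI V, 6.18 in KIX D and 6.24 in KIX V, and the macrophage score was 2.22, 2.39, 1.77 and 1.85. Both followed the order of the interferon-induced score there, which was 6.07, 6.39, 5.67 and 5.91. The primitive streak score (1.01, 1.52, 0.70 and 0.81) and the p53 target and stress score (4.66, 4.77, 4.43 and 4.50) had that order too. The order was thus not particular to cell type markers. At number 1 the fibroblast score was 6.96, 6.39, 6.46 and 6.44 and the interferon-induced score 4.41, 4.67, 4.60 and 4.27, in another order. At number 4 the fibroblast score (5.93 ± 0.099) and the macrophage score (1.80 ± 0.065) were the lowest of the 3 numbers, as was the interferon-induced score. Of them Pdgfrb, a growth factor receptor, rose (1.23), as did Col3a1, a collagen (0.60), while Lum, lumican (-0.93), and Fap, a surface protease (-0.30), fell, with Col3a1 and Fap lost in 5 and 7 of the 8 fits without 1 library (adjusted p over all alternatives = 9.58e-05 to 0.111 and 0.0278 to 0.0979). The 10 macrophage genes summed to 60.8 to 91.6 and 38.3 to 64.5 FPKM, with Lyz2, lysozyme, down (-1.22) and Cd68 (0.42) and Fcer1g (0.50) up, of which Fcer1g was lost in several alternatives (adjusted p = 0.00287 to 0.0847). The 8 endothelial genes summed to 20.6 to 24.9 and 21.2 to 26.6 FPKM, with Robo4 up (0.85) and Flt1 down (-0.72), and Robo4 was lost with letter by number means over the 12 iPSC libraries (adjusted p = 0.000364 to 0.0564 over the alternatives). No marker of these 3 lists was at 0 in all 8 libraries. Fap passed the filter through number 1 only and Robo4 through number 10 only. With the fibroblast score as a covariate, all 32 interferon-induced genes were called up. That score was nearly the same at both numbers, so the covariate could take little from a difference between them. In these bulk libraries a change in the number of cells of a type and a change in RNA per cell cannot be told apart, and the part of the feeder cells in these rises was not tested.

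Transcripts known to respond to low oxygen fell, with 19 of 25 tested genes outside glycolysis down, 1 up and a median of -0.78. Bnip3, a mitophagy receptor, was at 58.1, 53.5, 86.4 and 70.5 FPKM in number 1 libraries and 8.89, 6.16, 14.01 and 9.52 in number 10 libraries, a change of -2.70 (SE 0.23, adjusted p = 0.000224). Ndufa4l2, a mitochondrial protein that rises in hypoxia, was at 12.6, 12.6, 25.8 and 21.3 and then 1.72, 1.52, 2.07 and 1.61 FPKM (-2.74, SE 0.22, adjusted p = 0.000208). The number 10 libraries lay close together in both genes, below every number 1 library. Egln3, a prolyl hydroxylase that marks the hypoxia-inducible factors for decay and is itself one of their targets, went from 16.2 ± 2.08 to 2.99 ± 0.611 FPKM (-2.12, SE 0.12, adjusted p = 8.72e-05). Ankrd37 (-2.16), the secreted Stc2 (-1.91), the mTOR inhibitor Ddit4 (-1.79), adrenomedullin Adm (-1.19) and the adenylate kinase Ak4 (-1.14) completed the 8 largest. Pfkfb4, a regulator of glycolytic flux, was the 1 that rose, from 1.28 ± 0.128 to 1.78 ± 0.280 FPKM (0.28), and its call was lost in 7 alternatives (adjusted p = 0.00725 to 0.117).

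The factors upstream did not share this fall. Of 8 genes of the hypoxia-inducible factor pathway, 2 fell and none rose, although 1 rose without KI D of number 1, 2 with the prefix as a block or the fibroblast score, and 4 with prefix by number means. Hif1a averaged 45.2 ± 1.83 FPKM in number 1 and 52.9 ± 8.23 in number 10 (log2 change 0.21, adjusted p = 0.129), and Epas1, the gene of HIF-2 alpha, at 9.15 ± 1.70 and 11.4 ± 2.35 (0.29, adjusted p = 0.181). Both are regulated mainly at the protein level, which these data do not measure. The 2 that fell were Hif3a (-0.41) and Vhl (-0.27), the latter lost with letter by number means over the 12 iPSC libraries (adjusted p = 0.00296 to 0.123 over the alternatives). Hif3a passed the filter through number 1 only, which leaves 1 of 7 down.

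Glycolysis genes fell as well, with 14 of 19 genes down, none up and a median of -0.71. Pgk1, phosphoglycerate kinase, was at 1233, 1181, 1601 and 1368 FPKM in number 1 libraries and 455, 432, 477 and 423 in number 10 libraries, a change of -1.58 (SE 0.096, adjusted p = 0.000105). Pgk1 is X-linked, and the medians by chromosome are given further on. Slc16a3, the lactate exporter, changed most (-1.82, from 94.5 ± 18.8 to 26.4 ± 6.86 FPKM). Slc2a1, the main glucose transporter (-1.38), and Slc2a3 (-0.99) fell at the entry of the pathway. Below them Pfkl (-1.33), Tpi1 (-1.26), Aldoc (-1.15) and Ldha, lactate dehydrogenase (-1.004), fell too. The summed level of the list was 9935 to 12049 FPKM at number 1 and 6365 to 7532 at number 10. The 28 respiratory chain genes had a median of only -0.12, with 11 down and none up, and that count was 5 and 6 without KIX D or KIX V of number 1, 7 without KI D or KI V of number 10 and 6 with letter by number means. Ndufa1, an X-linked subunit of complex I, fell most (-0.42), before Uqcrfs1 of complex III (-0.35), Ndufv2 of complex I (-0.25, adjusted p = 0.00266 to 0.0983 over the alternatives) and Atp5c1 of the ATP synthase (-0.25).

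**Figure D3:**
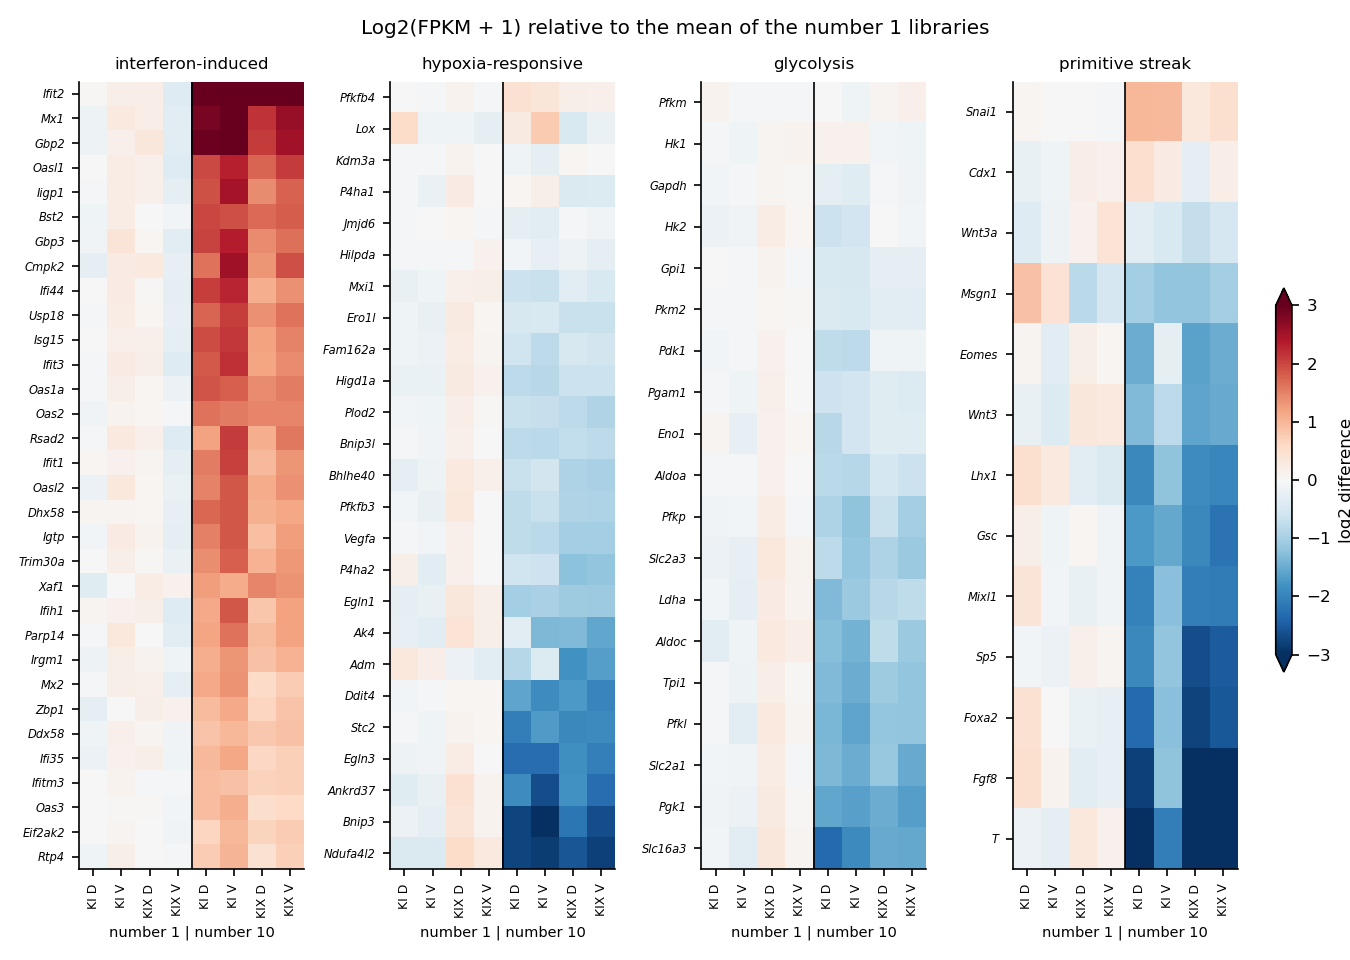
Colour gives log2(FPKM + 1) of each tested gene in each library, relative to the mean of the 4 number 1 libraries and limited to 3 either way, for 4 lists ordered by change. The 4 number 10 columns are red throughout the interferon-induced list and mostly blue in the other 3, and in the primitive streak list the KI V library of number 10 is paler than its neighbours.

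Primitive streak and early mesendoderm genes fell, with 11 of 13 tested down, 1 up and a median of -1.75. The other 3 of 16 were not tested, and 7 of the 13, T, Mixl1, Msgn1, Wnt3, Wnt3a, Foxa2 and Lhx1, passed the filter through number 1 only, so they had to be lower at number 10 and these counts describe the list without supporting a change of it. Of the 6 that reached 1 FPKM in 2 or more libraries of both numbers, 4 fell and 1 rose. T, brachyury, which marks the streak, was at 24.8, 23.2, 35.1 and 31.0 FPKM in number 1 libraries and 0.623, 5.89, 0.368 and 0.889 in number 10 libraries, a change of -3.65 (SE 0.46, adjusted p = 0.000909). Among the number 10 libraries KI V held several times more than the other 3, and it was also the highest for Fgf8, a growth factor of the streak (1.71, 7.24, 0.668 and 0.891 FPKM, from 25.5, 19.4, 13.96 and 15.1 at number 1, log2 change -2.71). The regulators Foxa2 (-2.22), Sp5 (-2.07), Mixl1 (-1.86), Gsc (-1.85) and Lhx1 (-1.75) and the ligand gene Wnt3 (-1.30) fell as well. All of these stood under 10 FPKM at number 1. The list's summed level was 93.8 to 112 FPKM at number 1 and 20.9 to 54.6 at number 10. Snai1, a repressor of epithelial genes, was the 1 that rose (0.69).

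The secreted inhibitors of Nodal fell, and so did Nodal. Lefty1 was at 239.8, 244, 317 and 326 FPKM in number 1 libraries and 50.3, 77.0, 59.0 and 55.7 in number 10 libraries (-2.20, SE 0.15, adjusted p = 0.000149), and Lefty2 at 126, 134, 269 and 274 and 32.3, 37.8, 45.0 and 35.5 (-2.30, SE 0.27, adjusted p = 0.000702). In the number 1 libraries Lefty2 was higher in KIX than in KI, and at number 10 the 4 libraries lay close together. Cer1, a secreted antagonist of Nodal and Wnt, went from 7.03 ± 1.94 to 0.485 ± 0.795 FPKM (-2.53), and Fst, follistatin, an inhibitor of activin, from 24.6 ± 6.75 to 4.87 ± 2.83 (-2.21). Nodal itself was at 41.4, 41.6, 41.5 and 42.3 and then 31.4, 29.9, 30.4 and 31.0 FPKM, a change of -0.43 (SE 0.037, adjusted p = 0.000238) with little spread within a number. In all, 6 of 13 Nodal pathway genes fell and 1 rose. Cer1 passed the filter through number 1 only, which leaves 5 of 12 down. Among 5 tested Wnt targets Axin2 rose (0.52) and Tcf7 fell (-0.44).

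Pluripotency lists were mixed. Of 12 primed or formative epiblast genes 5 fell, led by Fgf5 (-1.42) and Otx2, which marks epiblast leaving the naive state (-1.35, from 39.8 ± 2.87 to 15.1 ± 2.22 FPKM), with Fgf15 also down (-0.80). Pou3f1 rose (0.88). Of 14 naive genes 5 rose and 2 fell, with Gbx2 (1.90) and Nr0b1 (0.70) up and Dppa3 (-1.12) and Tcl1 (-0.79) down. Of the general pluripotency genes 3 of 12 rose and none fell, namely Trim28 (0.58), Utf1 (0.53) and Dppa2 (0.36). The general pluripotency count was 1 without KIX V of number 1 and 6 without KI V of number 10, and letter by number means gave 3 naive genes up and none down. Within KI 1 of the 12 general pluripotency genes rose (median 0.080) and within KIX 7 (median 0.32), with none down in either. Several of the calls above were lost in alternatives, with adjusted p from 0.00301 to 0.0513 for Fgf5, 0.0063 to 0.0582 for Fgf15, 0.000733 to 0.125 for Pou3f1, 0.0017 to 0.0972 for Nr0b1, 0.000309 to 0.0665 for Dppa3, 0.000433 to 0.105 for Tcl1, 0.000464 to 0.0692 for Utf1 and 0.00227 to 0.0538 for Dppa2. All 7 tested genes of the 2-cell-like state rose (median 1.03), but 4 of 11 in the table did not reach the filter, 6 of the 7 passed it through number 10 only, the Zscan4 copies are near-identical, and only 1 was called when 1 FPKM was asked of 4 libraries. Zscan4f was at 0.296, 0.230, 0.0593 and 0.0587 FPKM in number 1 libraries and 1.85, 0.845, 1.74 and 1.24 in number 10 libraries, and Zscan4d (1.04) and Zscan4c (1.03) were alike in size. Sp110 of the same list (1.53) is also known as interferon-inducible, and its call was lost with letter by number means (adjusted p = 7.83e-05 to 0.104 over the alternatives).

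Epithelial, trophoblast and biosynthetic genes were lower at number 10. Of the cornified layer genes, which build the outer skin, 5 of 7 tested fell and none rose, led by Sprr2k (-3.24), Crct1 (-2.51), Sprr2h (-2.13) and Krt17 (-1.47). The other 8 of 15 were not tested, and Sprr2k and Sprr2h passed the filter through number 1 only, which leaves 3 of 5 down. Sprr2k was at 24.6, 11.6, 18.1 and 11.4 FPKM in number 1 libraries and 0.795, 0.692, 1.01 and 0.550 in number 10 libraries. The Sprr2 genes are close copies of one another, so the division of reads between them is uncertain. All 6 tested trophoblast genes of 9 fell, of which Cdx2 passed the filter through number 1 only, with the keratins Krt8 (-1.99), Krt7 (-1.11) and Krt18 (-0.97) and the regulator Tfap2c (-0.90) at the front, and Krt19, another simple epithelial keratin, fell by a change of -2.22. Acta1, skeletal muscle actin, also stood among the 12 largest falls (-2.26). Of 10 amino acid response genes 9 fell, among them the serine synthesis enzymes Phgdh (-0.92) and Psat1 (-0.86), the mitochondrial folate enzyme Mthfd2 (-0.60) and the pseudokinase Trib3 (-0.57). Vldlr of that list passed the filter through number 1 only, which leaves 8 of 9 down. Of 12 cholesterol synthesis genes 7 fell, by smaller steps, with Insig1 (-0.52), Cyp51 (-0.47) and Dhcr7 (-0.43) among them.

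The remaining lists were mixed. Among p53 target and stress genes, 3 of 11 rose and 4 fell, including Ddit3 (0.71) upward and Atf3 (-1.34), Bbc3 (-0.73) and Trp53inp1 (-0.71) downward. Of 9 genes of the DNA methylation machinery Tet2 (0.99) and Dnmt3l (0.65) rose, both lost in 1 or more alternatives (adjusted p = 0.000162 to 0.0543 and 0.00128 to 0.193). Within KI 1 of the 9 rose (median -0.063) and within KIX 7 (median 0.44), with none down in either. Among 9 germ line genes Sycp3 (-0.94) and Hormad1 (-0.89), of meiotic chromosomes, were 2 of the 3 that fell. Among the 3 that rose were Tex101 (0.42) and Ddx4, an RNA helicase of germ cells (0.38), each lost in 1 alternative (adjusted p = 0.012 to 0.0572 and 0.00696 to 0.112 over the alternatives). Tex101 passed the filter through number 10 only, which leaves 2 of 8 up and 3 down. Of 12 DNA replication genes only Cdt1 (0.29) and Mcm5 (0.21) rose, the latter lost with letter by number means (adjusted p = 0.00127 to 0.0815 over the alternatives). Within KI 2 replication genes rose and 7 fell (median -0.17), and within KIX 4 rose and 1 fell (median 0.092). The difference itself was called in 2 of the 12, in the unstable test given below. Over all genes tested 19.9% rose and 20.0% fell within KI, and 23.2% and 24.6% within KIX. Of 19 imprinted genes 4 rose and 2 fell, with Meg3 (0.75, adjusted p = 0.00104 to 0.0743 over the alternatives), Plagl1 (0.57) and Mest (0.55) up and Grb10 (-0.54) down. Kcnq1ot1 passed the filter through number 10 only, which leaves 3 of 18 up. Within KI 2 imprinted genes rose and 6 fell (median -0.051), and within KIX 7 rose and 3 fell (median 0.22). In the reference list 2 of 8 fell, the X-linked Hprt (-0.87, from 239 ± 20.9 to 130.1 ± 9.24 FPKM) and, less stably, Ywhaz (-0.22, adjusted p = 0.000702 to 0.0552 over the alternatives).

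X-linked transcripts as a whole were lower at number 10, a pattern noticed after the values were seen. Over 492 X-linked genes tested the median change was -0.25, against medians between -0.064 (chromosome 13) and 0.077 (chromosome 8) for the 19 autosomes. On the X 46.7% of genes fell and 7.11% rose, beside 20.5% and 18.6% over all genes tested. The shift was found within both prefixes, at -0.18 in KI and -0.28 in KIX. Relative to the mean of the number 1 libraries, the X median was -0.18 in KI D, -0.19 in KI V, -0.26 in KIX D and -0.33 in KIX V of number 10. In the number 1 libraries it lay between -0.020 and 0.024, so the groups did not overlap. Some autosomes had no overlap either, with smaller shifts. On chromosome 8, for one, the medians were 0.031 to 0.127 at number 10 and -0.0089 to 0.0023 at number 1. Leaving out the genes of every list gave -0.25 (483 genes), and genes with a mean of 10 FPKM or more gave -0.29 (231 genes). By position the genes in 3 equal parts along the chromosome gave -0.25, -0.19 and -0.28, so the shift was not held by 1 end of the chromosome. Rps4x, a ribosomal protein gene on the X, went from 3651 ± 246 to 2641 ± 94.0 FPKM (-0.47, SE 0.064, adjusted p = 0.00123). Xist, the RNA that silences an X, stood at 3.51, 2.64, 1.71 and 1.84 FPKM in number 1 libraries and 3.64, 3.66, 2.79 and 2.41 in number 10 libraries (0.29, adjusted p = 0.233). The Y-linked Ddx3y, Eif2s3y, Kdm5d and Uty were at 0.037 FPKM or less in all 8 libraries. With X-linked genes left out before the fit, 4758 genes were called, 2354 up and 2404 down.

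**Figure D4:**
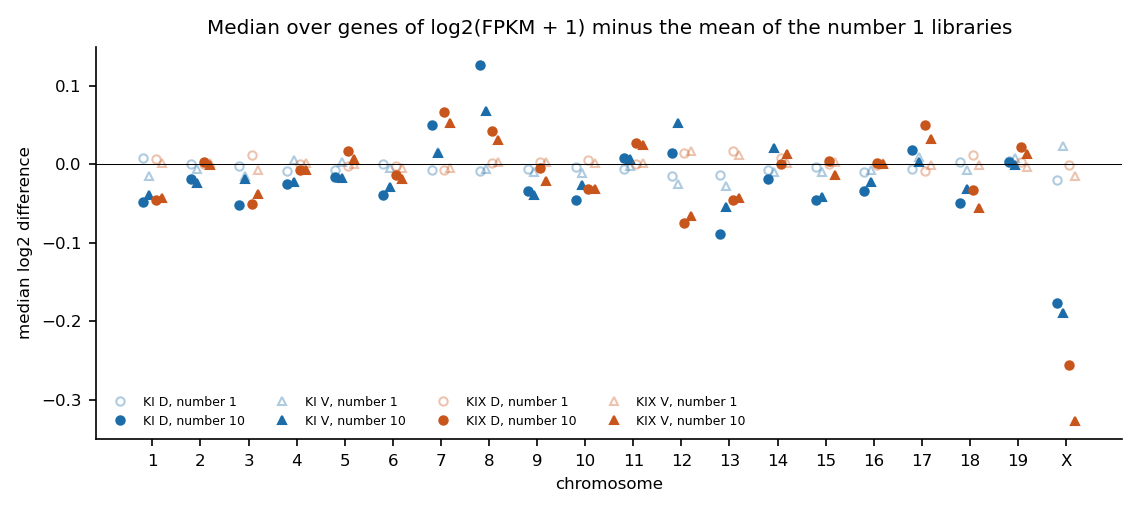
Median over the tested genes of a chromosome of log2(FPKM + 1) minus the mean of the number 1 libraries, for each library of number 1 (open) and number 10 (filled). The 4 number 10 libraries lie at -0.18 to -0.33 on the X and between -0.089 and 0.127 on every autosome.

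The change was also computed within each prefix, with D and V as 2 replicates. Within KI 5140 genes were called (39.9%) and within KIX 6151 (47.8%). In KI 2568 genes rose (19.9%) and 2572 fell (20.0%), and in KIX 2990 rose (23.2%) and 3161 fell (24.6%). The KI and KIX changes share no library, and 1646 genes rose and 1780 fell in both, while 109 were called in opposite directions. Across the 12875 genes the 2 changes correlated with Pearson r = 0.518 and Spearman rho = 0.692, a description over genes that are not independent replicates. All 32 interferon-induced genes rose in each prefix, with medians of 1.61 in KI and 1.27 in KIX. Hypoxia-responsive genes fell in 19 of 25 cases in KI and 21 in KIX (medians -0.56 and -1.06), glycolysis genes in 17 and 16 of 19 (-0.76 and -0.63), and streak genes, with the limit given above, in 9 and 10 of 13 (-1.65 and -1.87).

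**Figure D5:**
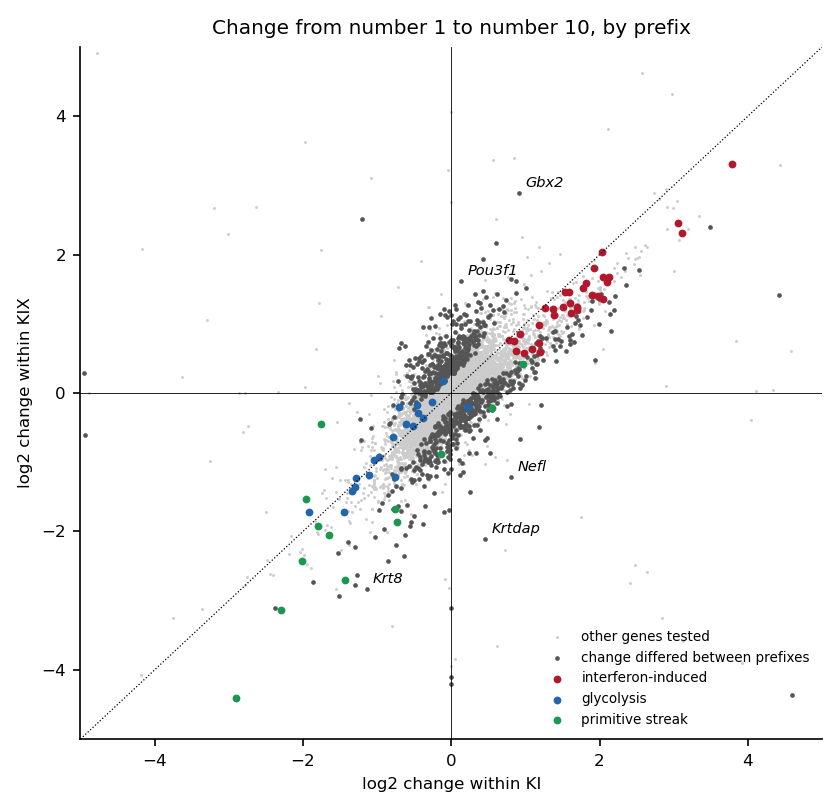
Log2 change of each tested gene within KI (horizontal) and within KIX (vertical), with list members in colour, genes whose change differed in dark grey and a dotted line of equal change; 22 genes lie beyond the axes, Mir203 among them. Interferon-induced genes lie in the upper right and streak genes mostly in the lower left of both prefixes, while Gbx2 and Pou3f1 lie above the line of equal change and Krt8, Nefl and Krtdap below it.

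The difference of the 2 changes was called in 861 genes (6.69%), 390 with the higher change in KIX (3.03%) and 471 with the lower (3.66%). This count was 36 without the KIX V library of number 1, 37 without KIX D of number 10, 47 without KIX D of number 1, 48 without KI V of number 1, 93 without KIX V of number 10 and 494 without KI V of number 10, so single calls here rest on the pairs of libraries behind them. Gbx2, a homeobox factor of naive cells, stood at 4.76, 4.91, 2.84 and 2.40 FPKM in number 1 libraries and 11.3, 8.78, 25.0 and 26.5 in number 10 libraries. Its change was 0.91 in KI and 2.89 in KIX, a difference of 1.98 (adjusted p = 0.00657). Pou3f1, a POU factor of the primed epiblast, was at 28.3, 30.3, 18.9 and 14.9 and then 28.5, 36.4, 49.4 and 58.3 FPKM, with changes of 0.13 and 1.62 (difference 1.48, adjusted p = 0.0225). In both genes the change was greater in the KIX pair than in the KI pair. Dnmt3a (difference 1.34, adjusted p = 0.0323), the ribosomal protein-like Rpl39l (1.57), the carbonic anhydrase gene Car3 (1.35) and the tubulin gene Tuba3b (1.35) made up the other 4 largest positive differences. Krtdap, a keratinocyte protein gene, went the other way, with 1.03, 1.31, 10.9 and 7.16 FPKM in number 1 libraries and 2.46, 1.55, 1.06 and 1.52 in number 10 libraries (difference -2.57, adjusted p = 0.0179). Nefl, a neurofilament chain, was at 12.7, 12.3, 49.3 and 49.7 and then 17.8, 28.7, 18.9 and 22.6 FPKM (difference -2.03). In both genes the KIX libraries of number 1 stood apart and the 4 libraries of number 10 were alike. Krt8 (-1.70), Lypd2 (-1.71), Dio3, an imprinted deiodinase (-1.69), and the calcium pump gene Atp2a3 (-1.66) were the other 4.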

How the data were processed

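RNA-seq of polyadenylated RNA was made with a stranded kit. The deposited table gives FPKM per gene and library, which the authors made on GRCm38 (mm10) with Cufflinks 2.2.1 and TopHat2 2.0.10, beside Bowtie 1.0.0, FastQC and SAMtools 0.1.19, per the submitters' processing notes. The annotation, settings and any scaling between libraries are not given in the sources used here. Only 34.5% of 28003 low values lay within 0.1 of a whole multiple of 1 read, so reads were not recovered, the depth is unknown and no count test was run.

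Changes were tested with limma 3.58.1 in R 4.3.3 on log2(FPKM + 1), two-sided, with an empirical Bayes trend and Benjamini-Hochberg adjustment over 12875 genes. Number means were fitted to 8 libraries, and prefix by number means, with D and V as 2 replicates, gave the changes within KI and KIX and their difference. The procedure was tested on simulated data with independent noise of the size seen between D and V libraries. That leaves out the difference between KI and KIX, so it sets no error rate for these data. The comparison and the gene lists were chosen with earlier results of these data known. Named genes are the 12 largest rises and falls without overlap between the numbers, the 6 largest each way within a prefix and for the difference between prefixes, and up to 4 called genes of a list (8 in long lists). Isg15, Irf1, Ifnb1, Pfkfb4, Hif1a, Epas1, Snai1, Xist, Rps4x the Y-linked genes, the 6 promoters, the look at chromosomes, the fit without X-linked genes and the 50 FPKM measure of library differences were chosen after values were seen. Alternatives changed the means fitted, block, pseudocount, filter, scaling, covariate and libraries included. List genes were matched by symbol, and promoters and the microRNA are from RefSeq (GRCm38.p6). Some genes that this rule names are not reported here.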

Additional observations from a re-analysis of the deposited data

Results flagged for a closer look

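Among 296 groups of 4 libraries (each named gene at both numbers), the highest or lowest library stood apart from the other 3 in 13, which chance does in about 1 in 20 groups. The KI V library of number 10 stood apart in T (5.89 FPKM), Fgf8 (7.24 FPKM), Mixl1 (1.07 FPKM), Lhx1 (0.752 FPKM), Cer1 (1.67 FPKM) and Fgf5 (3.92 FPKM). Other libraries stood apart in Abl1 (22.1 FPKM in KI D of number 10), Tlr3 (1.75 FPKM in KIX V of number 1), Col3a1 (463 FPKM in KI D of number 1), Ak4 (16.2 FPKM in KI D of number 10), Vhl (8.32 FPKM in KIX D of number 10), Slc2a1 (311 FPKM in KIX D of number 1) and Meg3 (53.5 FPKM in KI D of number 10).

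The change from number 1 to number 10 differed between the prefixes by limma in 861 genes, and 33 of the named genes were among them. Without the KIX V library of number 1 the count was 36, so single values are uncertain. The log2 difference, KIX minus KI, was positive in Gbx2 (1.98), Rpl39l (1.57), Pou3f1 (1.48), Car3 (1.35), Tuba3b (1.35), Dnmt3a (1.34), Meg3 (1.04), Dnmt3l (0.98), Epas1 (0.86), Utf1 (0.82), Trim28 (0.56) and Socs3 (0.46). It was negative in Mir203 (-10.91), Krtdap (-2.57), Nefl (-2.03), Lypd2 (-1.71), Krt8 (-1.70), Dio3 (-1.69), Atp2a3 (-1.66), Krt17 (-1.45), Atf3 (-1.43), Krt19 (-1.41), Sp110 (-1.25), Wnt3 (-1.13), H2-Q6 (-0.99), Lefty2 (-0.87), Ddit3 (-0.81), Ccl8 (-0.81), Ndufa4l2 (-0.74), Krt7 (-0.62), Psmb8 (-0.56), Snai1 (-0.55) and Hif1a (-0.29). The value for Mir203 rests on libraries listed at 0 and is no measure of size.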

How the results depend on the processing

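The count of genes changed between the numbers, 5031, stayed within 1.5 times under every alternative run, from 3606 with letter by number means over the 12 iPSC libraries to 7419 with prefix by number means, and from 3644 to 5008 with 1 library left out. The interferon-induced count was 32 up throughout. Deviations from the number mean correlated by only -0.050 to 0.12 between same-coded libraries. D and V libraries of a prefix gave -0.15 to 0.11. Deviations within a number cancel out by construction, which lowers the D and V values and not the same-coded ones. The ranges therefore share no baseline, and whether title codes pair the libraries was not settled by this measure. The code as a replicate block gave 4755 calls, 3310 within KI, 4584 within KIX and 15 for the difference between prefixes. Leaving out 1 library gave 3406 to 4608 calls within KI, 3854 to 6557 within KIX and 36 to 770 for the difference, which gave 542 calls with no filter and 131 with the fibroblast score. Quantile scaling turned the difference to 539 positive and 407 negative calls, against 390 and 471. The cause was not tested. Of 133 named genes called between the numbers, 108 had the same call in every alternative. The KIX count was 3964 without KIX V of number 1 and 4059 without KIX V of number 10, and its lowest value is that without KIX D of number 1, while the lowest KI count is that without KI V of number 1. In 4 uncalled genes the sign turned in fits without 1 library. Pou5f1 was at -0.0014 (adjusted p = 0.992) and -0.0039 (0.978) without KIX D or KIX V of number 10, with a range of -0.0039 to 0.11 (adjusted p 0.162 to 0.992). Nanog was at 0.0062 (0.977), 0.00054 (0.998) and 0.025 (0.884) without KIX D or KIX V of number 1 or KI V of number 10, with a range of -0.14 to 0.025 (adjusted p 0.295 to 0.998). Car3 was at 0.14 (0.746), 0.16 (0.683) and 0.092 (0.843) without KI D or KI V of number 1 or KI D of number 10, and at 0.031 (0.965) with a pseudocount of 0.1, with a range of -0.28 to 0.16 (adjusted p 0.406 to 0.976). Nefl was at 0.11 (0.876) and 0.12 (0.868) without KIX D or KIX V of number 1, with a range of -0.53 to 0.12 (adjusted p 0.251 to 0.886). The depth in reads is unknown, so no limit from depth could be set.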

Other observations

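Outside the lists above, 4 gene groups were assembled after the values were seen, so their counts describe and test nothing. All 8 tested guanylate-binding protein genes rose from number 1 to number 10, with a median log2 change of 2.09. Of 10 endoplasmic reticulum chaperone genes 9 fell (median -0.45) and none rose. Of 14 immediate-early genes, which growth signals switch on quickly, 9 fell (median -0.49) and none rose. Of 19 contractile and matricellular genes, expressed by fibroblasts and smooth muscle, 13 fell (median -0.61) and none rose, while the fibroblast markers had 2 up and 2 down.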
